A study of Mus musculus with 12 samples.

Results

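Slc6a20a-/- (homozygous, HM) mice were compared with wild-type (WT) mice across all genes of the whole-brain transcriptome, by brain region, cell type and pathway. All 8 mice whose deposited columns carry these genotypes, 4 HM and 4 WT, of the 12 mice in the series were used, and the 18004 of 19775 genes in the table that averaged 10 or more normalized counts in them were tested. All mice were males of the C57BL/6N background at about postnatal day 120, produced by crossing heterozygous parents. HM mice lack exon 3 of Slc6a20a in all cells, so the deletion is not restricted to a cell type or age. The remaining 4 mice carry 1 deleted allele (heterozygous, HT). They were used for a direct HM against HT test of the genes and gene lists described, and some of their values are printed beside it. They also entered 1 alternative fit of all 12 mice. RNA was taken from whole brain and sequenced as 100-base paired-end reads after TruSeq library preparation. Labels give 1 library per mouse, and p-values describe the spread between these mice. Levels are given as normalized counts, differences as log2 fold changes of the normalized count plus 1, each with its standard error (SE), and p-values come from limma.

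SLC6A20A is a sodium- and chloride-coupled transporter that carries proline and also glycine into cells. Glycine serves in the brain as an inhibitory transmitter at glycine receptors and as a co-agonist at NMDA-type glutamate receptors, and its extracellular level is held down mainly by the transporters GlyT1 (Slc6a9) and GlyT2 (Slc6a5). Proline is taken up at synapses by SLC6A7 and broken down by proline dehydrogenase (Prodh).

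The deleted exon is shown here because it defines the allele. It lies on the minus strand at chr9:123662949-123663040 (GRCm38) and is exon 3 of the 11 exons of transcript Slc6a20a-201. Its 92 bases leave a remainder of 2 when divided by 3, so joining exon 2 to exon 4 shifts the reading frame. In the transcript sequence from the reference annotation, capitals mark exon 3 and lower case marks 15 bases of exon 2 and of exon 4, 5′ to 3′.
Slc6a20a exons 2 to 4, wild type: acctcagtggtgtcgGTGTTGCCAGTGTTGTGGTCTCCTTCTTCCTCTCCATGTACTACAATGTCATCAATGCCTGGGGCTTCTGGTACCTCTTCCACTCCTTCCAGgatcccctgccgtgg
Slc6a20a exons 2 and 4 joined: acctcagtggtgtcggatcccctgccgtgg

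Slc6a20a (ENSMUSG00000036814, chr9:123634770-123678885, minus strand) measured 704, 584, 679 and 751 normalized counts in the WT mice. It measured 69.0, 55.6, 76.5 and 57.1 in the HM mice and 332, 366, 372 and 310 in the HT mice. The 3 genotypes did not overlap, and every library matched its label. Slc6a20a fell by 3.38 (SE 0.12, limma adjusted p = 1.75e-08) in HM. Slc6a20b, the neighbouring paralog that encodes a related imino acid transporter, measured 31.2, 32.8, 25.5 and 27.1 in WT and 11.1, 15.7, 17.3 and 23.8 in HM. For Slc6a20b the 4 HM mice were all below the lowest WT mouse (log2 fold change -0.78, SE 0.26, unadjusted p = 0.00981, adjusted p = 0.655), but reads of these similar genes can be split between them in transcript quantification, so its value is uncertain.

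Normalized counts summed to between 33284951 and 33748623 per mouse and 19715 to 19729 genes were above 0. The deposited values are already scaled, so sequencing depth per library is unknown. Forebrain genes were abundant in every mouse: Slc17a7, the vesicular glutamate transporter of cortical neurons, measured 31841 to 34342 and the striatal dopamine receptor Drd1 measured 929 to 1167 in the 8 mice. Defining cerebellar genes were near the filter of 10, with 5.54 to 26.4 for the Purkinje cell gene Pcp2 and 12.1 to 24.6 for the granule cell gene Cbln3. Of 20 hindbrain and spinal cord genes listed, 3 were tested. The tissue labelled whole brain thus held little RNA of cerebellar markers, and cerebellar genes are given below only as a count. WT replicate 1 stood apart from the other WT mice in a way related to transcript length (described with the ribosomal genes), and several lists are therefore also given without it. In bulk tissue, fewer cells of a type and less RNA per cell cannot be told apart.

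Only Slc6a20a and Gtf3c4 passed an adjusted p of 0.05, which is 0.0111% of the genes tested. Gtf3c4 (ENSMUSG00000035666, chr2:28822299-28840360, minus strand) encodes a subunit of TFIIIC, the factor that recruits RNA polymerase III to tRNA and 5S rRNA genes. It measured 1364, 1368, 1411 and 1438 in WT and 1885, 1780, 1881 and 1901 in HM, with no overlap. Gtf3c4 rose by 0.42 (SE 0.05, adjusted p = 0.00446 by limma) and was also higher in HM than in HT (0.25, unadjusted p = 0.00293). With the replicate number as a block, or without a trend in the variance prior, 1 gene (Slc6a20a) passed. Gtf3c4 was also lost with a block for shared leading digits of the column names (described with the microglial genes). The other 21 genes of RNA polymerase III and TFIIIC did not pass at an unadjusted p of 0.05, their levels including Gtf3c1 (0.04), Polr3a (0.02) and the polymerase III repressor Maf1 (0.02, all log2 fold changes).

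At an unadjusted p of 0.05, 708 genes were higher in HM (3.93% of those tested) and 550 were lower (3.05%). For 433 genes (2.41%) every HM value lay above every WT value, and for 326 (1.81%) every HM value lay below. Median log2 fold change over all genes was -0.0003. These shares are the background against which the gene lists below are read. Over the same genes, 546 were higher and 459 lower without HM replicate 2, and 635 and 568 without WT replicate 1. After length and GC correction 634 were higher and 574 lower. List counts given below under those settings are to be read beside these, since the calls over all genes change too. Because nearly all of these genes failed the adjusted test, they are described as higher or lower in these 8 mice. Of the genes named below, Atp1b2, Cacng8, Cdc73, Cdhr1, Col11a1, Dlx1, Eomes, Gng4, Mdga1, Nlgn3, Robo1, Rpl13a, Rpl9, Sema5a, Tenm3, Tshz1, Tubgcp6 and Wfs1 are on the list of genes the study drew from these same mice for HM, so their values are not independent of it.

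Among protein-coding genes averaging 100 or more normalized counts, apart from those the study lists for HM, genes with the smallest p-values in the upward direction included Pcdhac1, Cd4, Wdr18, Th, Pcdh10, Map1a, Pcdhgb7, Scfd2, Ehd1, Actr10 and Slit1. Each of these 11 had HM values entirely above its WT values, log2 fold changes of 0.16 to 0.45 and adjusted p of 0.553 to 0.561 by limma. Pcdhac1, Pcdhgb7 and Pcdh10 encode protocadherins, cell adhesion molecules of neurons. Pcdhac1 measured 203, 231, 203 and 210 in WT and 272, 267, 277 and 268 in HM, a narrow HM range well above WT (0.36, SE 0.08, unadjusted p = 0.000897). Map1a, a microtubule-associated protein of mature neurons, measured 37067, 42128, 40320 and 40841 in WT and 44640, 45392, 44071 and 44757 in HM (0.16, SE 0.04). Cd4, a T cell co-receptor gene, measured 269, 297, 284 and 260 in WT and 346, 334, 345 and 377 in HM (0.34, SE 0.08). Against HT, of these 3, none differed at an unadjusted p of 0.05 (unadjusted p = 0.0721 for Pcdhac1, unadjusted p = 0.262 for Cd4 and unadjusted p = 0.726 for Map1a).

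In the downward direction the first 12 were Acad10, H2afz, Pdcd10, Stx8, Cox7a2, Cox19, Incenp, Col24a1, Usmg5, C1qtnf12, Rpl17 and Cox8a, with adjusted p of 0.553 to 0.641. Cox7a2, Cox8a, Cox19 and Usmg5 encode proteins of cytochrome c oxidase, its assembly or ATP synthase, and Rpl17 encodes a ribosomal protein. Acad10, an acyl-CoA dehydrogenase family gene, measured 182, 211, 182 and 199 in WT and 156, 150, 116 and 125 in HM, with HM below WT in each mouse (-0.51, SE 0.12, unadjusted p = 0.00102; against HT -0.27, unadjusted p = 0.0426). Stx8, an endosomal SNARE gene, measured 593, 660, 566 and 568 in WT and 493, 506, 476 and 490 in HM (-0.28, SE 0.07), but against HT its difference was 0.02. H2afz, the histone variant H2A.Z, measured 3520, 3281, 3408 and 3236 in WT and 2946, 2932, 3123 and 2855 in HM (-0.18, SE 0.04). Incenp and Col24a1 were the 2 of the 12 whose groups overlapped.

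**Figure D1:**
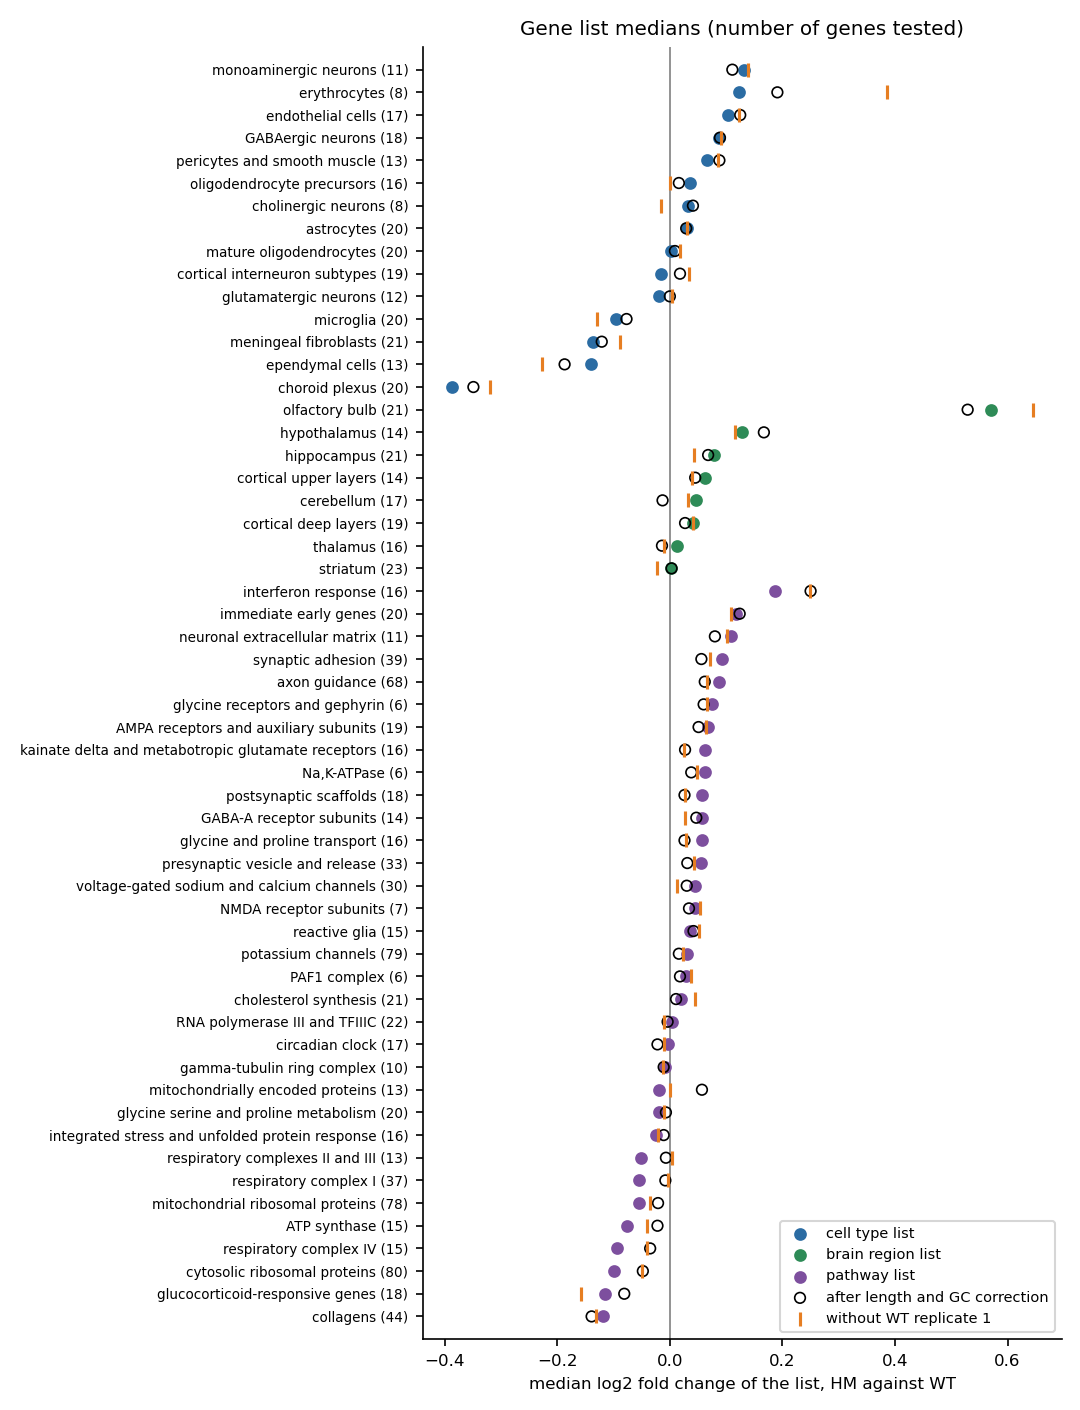
Median log2 fold change (HM against WT) of each cell type, brain region and pathway list, with the number of genes tested in brackets. Filled points are values as normalized by the authors, open circles follow correction for transcript length and GC content, and orange ticks leave out WT replicate 1. Olfactory bulb genes lie farthest to the right (0.57) and choroid plexus genes farthest to the left (-0.39).

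Among the 7 forebrain region lists, that of the olfactory bulb had the most genes higher in HM. Of its 21 genes, 13 were higher at an unadjusted p of 0.05 (61.9%, against 3.93% of all genes), 0 were lower, and 20 had a positive log2 fold change, with a median of 0.57. In 4 of them all HM values lay above all WT values (2.41% over all genes). The study's own list for HM holds 7 of the 21 genes, so the count is not independent of it. Without those, 6 of 14 were higher, 0 lower, and 0 had groups without overlap, with a median of 0.42.

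Projection neurons of the olfactory bulb, the mitral and tufted cells, are marked by the T-box factors Eomes and Tbx21 and the cadherin Cdhr1. Eomes (chr9:118478212-118486132) measured 40.1, 28.2, 20.3 and 15.8 in WT, 32.8, 17.5, 20.3 and 20.7 in HT and 83.5, 44.1, 59.6 and 86.5 in HM. All HM mice were above all others, and HM replicate 2 was the lowest of them (HM against WT 1.39, SE 0.29, unadjusted p = 0.000422). Against HT, Eomes was higher by 1.53 (unadjusted p = 5.57e-05). Cdhr1 (chr14:37077857-37098347) measured 370, 369, 272 and 288 in WT, 276, 276, 342 and 258 in HT and 557, 391, 449 and 636 in HM (0.63, SE 0.15, unadjusted p = 0.000939; against HT 0.80, unadjusted p = 7.32e-05). HM replicate 2 was again the lowest HM mouse, little above the upper WT values. Tbx21 measured 21.9, 9.53, 5.57 and 6.64 in WT and 29.6, 13.9, 19.2 and 21.2 in HM, with WT replicate 1 above 3 of the 4 HM mice (1.02, SE 0.40, unadjusted p = 0.0243).

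Gng4, a G protein gamma subunit gene of olfactory bulb neurons, measured 1766, 1488, 1584 and 1552 in WT and 2010, 1859, 2016 and 2218 in HM, without overlap. Its log2 fold change was 0.34 (SE 0.06, unadjusted p = 0.000145) against WT and 0.30 (unadjusted p = 0.000153) against HT. Tshz1, a transcription factor of olfactory bulb interneurons, measured 1269, 1148, 1121 and 1194 in WT and 1370, 1321, 1428 and 1450 in HM (0.24, SE 0.06, unadjusted p = 0.000881). Th, which encodes the rate-limiting enzyme of dopamine synthesis and is expressed in midbrain neurons and in periglomerular cells of the bulb, measured 254, 316, 326 and 349 in WT and 433, 400, 375 and 486 in HM (0.45, SE 0.11, unadjusted p = 0.00135; against HT 0.38, unadjusted p = 0.0187). Its groups did not overlap. The dopamine transporter Slc6a3, expressed mainly in midbrain dopamine neurons, measured 206 to 472 in WT and 302 to 464 in HM, overlapping widely (0.34, SE 0.25, unadjusted p = 0.200).

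Mean deviations of the 21 olfactory bulb genes from the WT mean were 0.37, 0.10, -0.31 and -0.16 in the WT mice and -0.02, -0.26, -0.17 and -0.32 in the HT mice. They were 0.72, 0.17, 0.63 and 0.82 in the HM mice (log2 units). HM replicate 2 lay within the WT range, and WT replicate 1 was the highest WT mouse. In the direct test, 13 of the 21 genes were higher in HM than in HT (2.11% over all genes) and 0 were lower (1.62%), with a median of 0.80. The median was 0.53 after correction for transcript length and GC content, 0.65 without WT replicate 1 and 0.66 without HM replicate 2. How much of the bulb each sample contained is not recorded in the labels, and its part in the result was not tested.

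**Figure D2:**
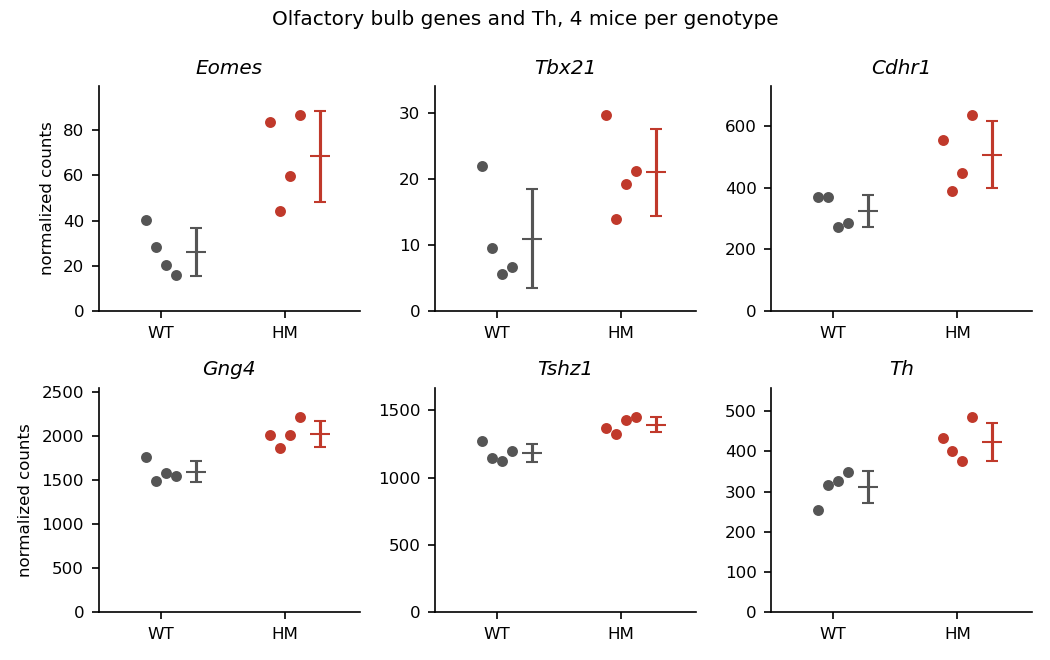
Normalized counts of Eomes, Tbx21, Cdhr1, Gng4, Tshz1 and Th in each of 4 WT and 4 HM mice (points, axes from 0), with the mean and SD beside them. All genes except Tbx21 have HM values entirely above the WT values.

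Fewer genes of other regions passed. Of 21 hippocampal genes, 3 were higher and 0 lower (median 0.08), and 3 had HM entirely above WT, with 1 of the 21 on the study's list. Without WT replicate 1 the median was 0.04 and 4 were higher. Wfs1, the endoplasmic reticulum protein wolframin that marks CA1 pyramidal cells, measured 3654, 3846, 4153 and 3884 in WT and 4418, 4241, 4579 and 4541 in HM (0.20, SE 0.05, unadjusted p = 0.00094). Fibcd1, another CA1 gene, measured 1024, 974, 975 and 989 in WT and 1082, 1078, 1129 and 1127 in HM (0.16, SE 0.05, unadjusted p = 0.00655). Against HT, Wfs1 and Fibcd1 differed by 0.01 each, and Prox1, a dentate granule cell factor, measured 977 to 1214 in WT and 1059 to 1322 in HM.

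Of 14 upper-layer cortical genes 2 were higher and 0 lower, and of 19 deep-layer genes 3 were higher and 0 lower (medians 0.06 and 0.04). Mdga1, an adhesion protein that binds neuroligins, measured 1199, 1271, 1475 and 1416 in WT and 1594, 1667, 1736 and 1583 in HM (0.30, SE 0.07, unadjusted p = 0.00061). The layer factors Cux2 (-0.09), Rorb (-0.08), Fezf2 (-0.02) and Tle4 (-0.03) did not pass. After length and GC correction Cux2 (-0.15, unadjusted p = 0.0332 by limma) and Rorb (-0.12, unadjusted p = 0.0442) were lower. The upper-layer list then had 2 genes higher and 2 lower, and without WT replicate 1 it had 1 higher and 0 lower. Ccn2, a marker of layer 6b neurons, measured 889, 850, 885 and 814 in WT and 918, 930, 1007 and 1109 in HM (0.20, SE 0.07, unadjusted p = 0.0101).

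In the striatum 1 of 23 genes was higher and 0 lower (median 0.002), and the dopamine receptors Drd1 (-0.02) and Drd2 (0.07) and the adenosine receptor Adora2a (-0.03) overlapped between genotypes and did not pass. Against HT, 4 of the striatal genes were lower and 0 higher. Of 16 thalamic genes 2 were higher and 1 lower, the latter being Tnnt1 at 288, 357, 285 and 317 in WT and 261, 262, 268 and 274 in HM (-0.22, SE 0.09, unadjusted p = 0.0269). Of 14 hypothalamic genes 1 was higher and 1 lower. Pmch, the precursor of melanin-concentrating hormone, measured 731 to 916 in WT and 651 to 738 in HM, where HM replicate 3 reached into the WT range (-0.23, SE 0.08, unadjusted p = 0.0113), while Hcrt (-0.31) and Avp (-0.24) did not pass.

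The 2 main neuronal classes differed in how many of their genes passed. None of 12 glutamatergic genes passed in either direction, and Slc17a7 (0.01), Slc17a6 (-0.02) and Camk2a (0.06) overlapped. Of 18 GABAergic genes 4 were higher (22.2%, against 3.93% of all genes) and 0 lower (median 0.09), and after length and GC correction 6 were higher and 0 lower. The study's list holds 1 of the 18, Dlx1, and without it 3 of 17 were higher. Dlx1 (chr2:71528113-71533981), a homeobox factor of forebrain interneurons and their precursors, measured 1121, 1074, 1057 and 1057 in WT and 1334, 1276, 1332 and 1502 in HM. All HM mice were above all WT mice (0.34, SE 0.06, unadjusted p = 6.26e-05, adjusted p = 0.282), and Dlx1 was also higher in HM than in HT (0.21, unadjusted p = 0.00241). Dlx6os1, the noncoding RNA of the Dlx5 and Dlx6 locus, measured 498, 560, 577 and 551 in WT and 699, 591, 602 and 635 in HM (0.21, SE 0.07, unadjusted p = 0.0147).

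Genes for GABA synthesis and vesicular loading, Gad1 (0.07), Gad2 (0.06) and Slc32a1 (0.11), did not pass. Of 19 genes of cortical interneuron subtypes, 3 were higher (1 without HM replicate 2) and 1, Pvalb, was lower. Pvalb, a calcium buffer of fast-spiking interneurons, measured 1615, 1296, 1306 and 1329 in WT and 1262, 1263, 1074 and 1143 in HM (-0.22, SE 0.08, unadjusted p = 0.0137), with a narrow gap between 1263 and 1296. Without WT replicate 1, its highest WT value, the difference was -0.15 (unadjusted p = 0.0394), and against HT it was -0.04. Sst (-0.06) and Vip (-0.07) did not pass. Of 8 cholinergic genes 0 passed, and of 11 monoaminergic genes 1, Th, was higher.

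Few astrocyte and oligodendrocyte genes passed. Of 20 astrocyte genes 1 was higher (Slc4a4, a bicarbonate cotransporter, 5602, 6036, 5996 and 6195 in WT and 6452, 6409, 6674 and 6847 in HM, 0.15, SE 0.04, unadjusted p = 0.00335). Of 20 mature oligodendrocyte genes 0 passed, and Mbp ranged from 77980 to 98441 in WT and from 79155 to 95651 in HM. Of 16 oligodendrocyte precursor genes 2 were higher and 0 lower, with Pdgfra at 0.01 and Cspg4 at 0.04.

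Few microglial genes passed, with small negative differences in most: 18 of 20 had a negative log2 fold change, 3 were lower and 1 higher at an unadjusted p of 0.05, and the median was -0.10. Without WT replicate 1, or without HM replicate 2, 1 was lower and 1 higher. Tmem119, a microglia-specific membrane protein, measured 710, 656, 650 and 672 in WT and 551, 629, 621 and 566 in HM, without overlap (-0.18, SE 0.07, unadjusted p = 0.0152; against HT -0.16, unadjusted p = 0.0264). Cx3cr1 (-0.07), P2ry12 (-0.03) and Csf1r (-0.03) overlapped with WT. Against HT, 5 of the 20 were lower and 1 higher. In 1 alternative, mice sharing the leading 3 digits of the number in their column name were treated as a block (column-number block). What that number stands for is not recorded. Such a fit compares only HM replicate 3 with WT replicate 1 and HM replicate 4 with WT replicate 2, because the other blocks hold a single genotype. There the median was 0.06, as it was for the meningeal list below, so these values rest on those mice.

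A minority of vascular genes passed, all of them higher. Of 13 pericyte and smooth muscle genes 4 were higher and 0 lower (30.8%, median 0.07), and 12 were positive. Of 17 endothelial genes 3 were higher and 0 lower, and 14 were positive (median 0.10; 1 higher without WT replicate 1 and 1 after length and GC correction). Acta2, smooth muscle actin, measured 351, 312, 381 and 370 in WT and 426, 433, 449 and 400 in HM (0.28, SE 0.08, unadjusted p = 0.0048; against HT 0.18, unadjusted p = 0.0429). Rgs5, a pericyte regulator of G protein signalling, measured 2341, 2353, 2546 and 2683 in WT and 2804, 2755, 2698 and 2783 in HM, a narrow gap between 2683 and 2698 (0.16, SE 0.05, unadjusted p = 0.00767). Abcc9, the sulfonylurea receptor subunit of an ATP-sensitive potassium channel, measured 303, 361, 337 and 328 in WT and 375, 373, 404 and 414 in HM (0.24, SE 0.08, unadjusted p = 0.0101; against HT 0.26, unadjusted p = 0.0055).

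Choroid plexus genes had the lowest median of all lists, -0.39, but the value rested on HM replicates 2 and 4. Of 20 genes, 3 were lower and 0 higher (1 lower without HM replicate 2, and 1 without WT replicate 1), and the summed level was 27559 to 34681 normalized counts in WT and 18483 to 32456 in HM. Mean deviations were -0.03, -0.80, 0.16 and -0.83 in the 4 HM mice and -0.11 to 0.17 in WT. Ttr, the thyroid hormone carrier transthyretin, measured 15365, 13722, 13782 and 17949 in WT and 14281, 8995, 16267 and 9336 in HM. Kl, the klotho gene, measured 687, 674, 611 and 824 in WT and 684, 321, 676 and 364 in HM, so 2 HM mice were at WT level. Meningeal fibroblast genes had 1 higher and 1 lower of 21 (median -0.14), with Col1a1 at 0.00 and Dcn at -0.16. Of 8 erythrocyte genes 1 was higher and 0 lower, and haemoglobin genes varied by mouse in both genotypes (Hba-a1 1678 to 4484 in WT and 1462 to 6440 in HM).

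**Figure D3:**
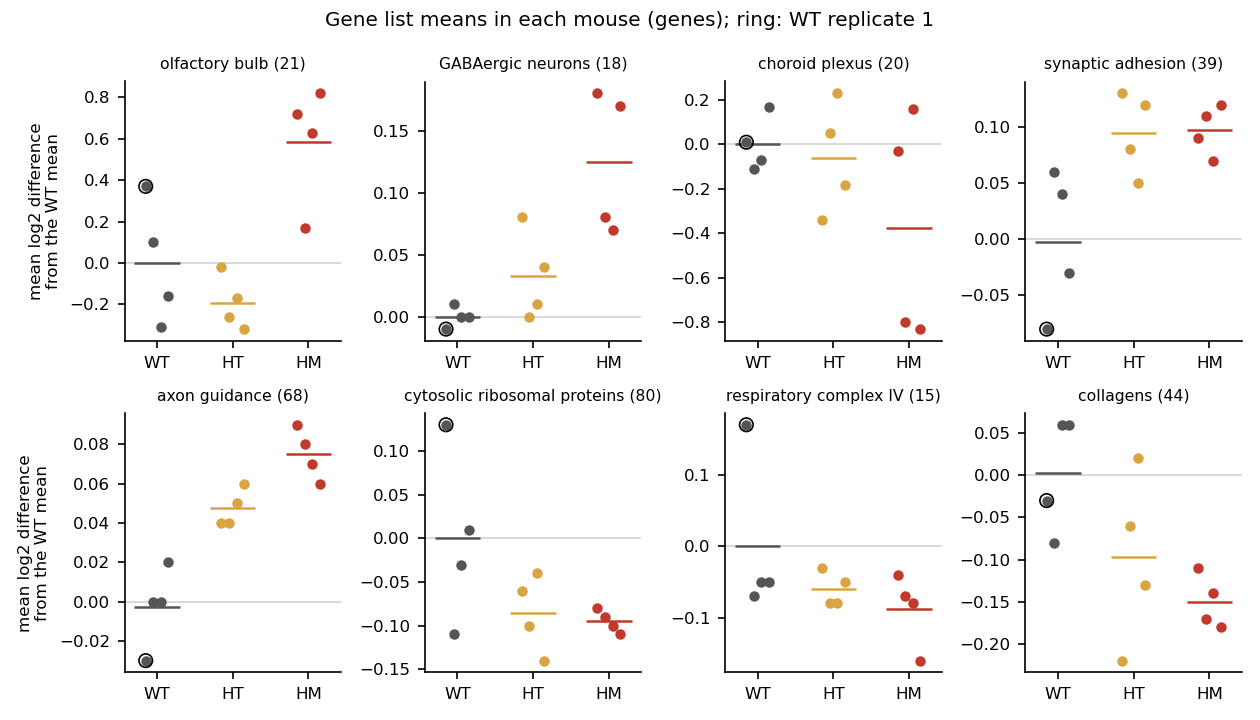
Mean log2 deviation from the WT mean over the genes of 8 lists, for each of 4 WT, 4 HT and 4 HM mice (points), with group means as lines and WT replicate 1 ringed. For olfactory bulb genes 3 HM mice lie above all WT mice (0.63 to 0.82) and HM replicate 2 lies within the WT range (0.17), HM replicates 2 and 4 lie low for choroid plexus genes, and WT replicate 1 lies apart for ribosomal and complex IV genes (0.13 and 0.17).

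Of the genes of glycine and proline handling other than the 2 paralogs, 2 were higher in HM. The list of 16 transporter genes had 2 higher (12.5%) and 1 lower (Slc6a20b; Slc6a20a itself was not in the list). The higher genes, named here after their values were seen, encode sodium-coupled neutral amino acid transporters. Slc38a5 measured 77.5, 33.6, 36.9 and 41.4 in WT and 78.1, 87.4, 69.95 and 61.2 in HM (0.70, SE 0.24, unadjusted p = 0.012), and WT replicate 1 reached into the HM range. Slc38a1 measured 7051, 7488, 7379 and 7606 in WT and 8115, 7964, 7528 and 7774 in HM, with overlap (0.09, SE 0.04, unadjusted p = 0.0394; 0.05, unadjusted p = 0.181 after length and GC correction). Slc6a9, the glial glycine transporter, measured 1828, 1663, 1815 and 1961 in WT and 1929, 1918, 1965 and 1776 in HM (0.06, SE 0.06), and Slc6a7, the proline transporter of glutamatergic terminals, had a difference of 0.00 (SE 0.05). Slc6a5 was low, with 44.5, 7.42, 11.02 and 7.61 in WT and 15.3, 21.8, 19.9 and 26.7 in HM, and its value turned on WT replicate 1 (0.61, unadjusted p = 0.219, and 1.17, unadjusted p = 0.00287, without that mouse). Of 20 genes of glycine, serine and proline metabolism 0 passed in either direction, and the median was -0.02. Gldc, of the glycine cleavage system, had a log2 fold change of 0.16 (SE 0.09), Phgdh -0.03 (SE 0.08) and Prodh -0.12 (SE 0.07).

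Among 7 NMDA receptor subunits, 1 was higher. Grin2b, the GluN2B subunit, measured 13507, 20338, 18978 and 16988 in WT and 20877, 21470, 20648 and 21016 in HM (0.28, SE 0.09, unadjusted p = 0.00998, adjusted p = 0.655). The groups did not overlap but differed most in WT replicate 1, without which the difference was 0.17 (unadjusted p = 0.00701). Against HT it was 0.05 (unadjusted p = 0.478). Grin1, the obligate glycine-binding subunit, measured 18843, 20708, 19159 and 18438 in WT and 19050, 19677, 21221 and 19589 in HM (0.04, SE 0.05), and Grin2a differed by 0.12 (SE 0.06, unadjusted p = 0.0591). Of 6 glycine receptor and gephyrin genes 0 passed: Glra1 0.30 (SE 0.15), Glra2 -0.04 (SE 0.07), Glrb 0.00 (SE 0.05) and Gphn 0.08 (SE 0.06).

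AMPA receptor genes were higher more often than the background. Of 19 AMPA receptor and auxiliary subunit genes 6 were higher (31.6%) and 0 lower, 16 were positive, the median was 0.07, and 1 was on the study's list. Cacng8 (chr7:3390683-3415648), the auxiliary subunit TARP gamma-8 of forebrain AMPA receptors, measured 1532, 1555, 1557 and 1634 in WT and 1769, 1838, 1792 and 1764 in HM, without overlap (0.19, SE 0.04, unadjusted p = 0.000737). It was the only AMPA gene of those named here that was also higher than in HT (0.16, unadjusted p = 0.00608). Gria1, the GluA1 subunit, measured 12729, 13535, 13474 and 13387 in WT and 13950, 14372, 13948 and 14185 in HM (0.09, SE 0.03, unadjusted p = 0.0207). Cacng3 (0.14) and the auxiliary subunit Gsg1l (0.12) also had HM entirely above WT, and Gria2 (0.06) did not pass. Of 16 kainate, delta and metabotropic receptor genes 5 were higher and 0 lower, including Grm5 (0.12, unadjusted p = 0.0216), but 3 were higher without WT replicate 1 and 1 without HM replicate 2. Of 14 GABA-A receptor genes 2 were higher and 0 lower (1 higher without WT replicate 1).

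Synaptic adhesion genes were higher more often than the background, by small amounts. Of 39 genes 12 were higher (30.8%) and 0 lower, 36 were positive, 7 had HM entirely above WT, and the median was 0.09. Nlgn3, Tenm3 and Mdga1 are on the study's list, and without those 9 of 36 were higher and 0 lower. Nlgn3, a postsynaptic neuroligin, measured 3710, 3945, 3899 and 3967 in WT and 4600, 4544, 4166 and 4300 in HM (0.18, SE 0.04, unadjusted p = 0.0011), and Tenm3, a teneurin, measured 2792, 3042, 3276 and 2769 in WT and 3330, 3616, 3615 and 3745 in HM (0.27, SE 0.06, unadjusted p = 0.00047). In both genes every HM mouse was above every WT mouse. Against HT, 1 of the 39 genes was higher and 0 lower, with a median of 0.01, and mean deviations of the HT mice (0.05 to 0.13) and of the HM mice (0.07 to 0.12) covered the same range.

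A minority of presynaptic genes passed, more often than the background and by small amounts. Of 33 presynaptic vesicle and release genes 9 were higher (27.3%) and 0 lower, with a median of 0.06, against 0 and 0 in the HM against HT test. Without HM replicate 2, 5 were higher, and after length and GC correction 5 were (median 0.03). Syn1, which tethers vesicles, measured 16778, 16825, 17199 and 16343 in WT and 17783, 18384, 17750 and 18386 in HM (0.11, SE 0.03, unadjusted p = 0.00586). Erc1 (0.17) and the active zone scaffold Bsn (0.12) also had HM entirely above WT, whereas Snap25 (0.00) and Stx1a (-0.06) did not pass. Of 18 postsynaptic scaffold genes 1 was higher and 0 lower, and Dlg4, the scaffold PSD-95, measured 23025 to 23229 in WT and 22731 to 24468 in HM.

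Axon guidance genes were likewise higher more often than the background. Of 68 genes 16 were higher (23.5%), 0 were lower, 53 were positive and 8 had HM entirely above WT (median 0.09), with 2 on the study's list. Robo1 (chr16:72308306-73046095), a Slit receptor, measured 1439, 1601, 1587 and 1477 in WT and 1851, 1698, 1907 and 1886 in HM (0.27, SE 0.05, unadjusted p = 0.00031). Its ligand Slit1 measured 3327, 3783, 3639 and 3533 in WT and 4092, 4135, 4121 and 3836 in HM (0.18, SE 0.05), Robo2 differed by 0.15 and Sema5a by 0.23. All 4 had non-overlapping groups. Without HM replicate 2, 10 of the 68 were higher. Against HT, 0 of the 68 passed in either direction.

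Of 79 potassium channel genes 7 were higher and 2 lower (median 0.03), and of 30 voltage-gated sodium and calcium channel genes 5 were higher and 0 lower (2 higher without WT replicate 1 and 1 without HM replicate 2). Of 6 Na,K-ATPase subunits 2 were higher, among them Atp1b2, a beta subunit, at 14743 to 15059 in WT and 16035 to 16364 in HM, without overlap (0.12, SE 0.03, unadjusted p = 0.00132; against HT 0.06, unadjusted p = 0.0386). Of 11 neuronal extracellular matrix genes 3 were higher and 0 lower, with Acan at 0.14 and Bcan at 0.02 (1 higher without HM replicate 2).

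Ribosomal protein genes were lower in HM more often than the background. Of 80 cytosolic ribosomal protein genes 23 were lower (28.7%, against 3.05% of all genes) and 0 higher, 76 had a negative log2 fold change, 7 had HM entirely below WT (1.81% over all genes), and the median was -0.10. The study's list holds 2 of the 80. Rpl9 measured 6709, 5672, 6230 and 6265 in WT and 5375, 5485, 5076 and 4912 in HM (-0.25, SE 0.05, unadjusted p = 0.000384), and Rpl13a measured 10422, 8668, 8896 and 9051 in WT and 7452, 8130, 7842 and 7816 in HM (-0.24, SE 0.05, unadjusted p = 0.000642). WT replicate 1 was the highest WT mouse for both. Ribosomal protein genes have many processed pseudogenes, so the assignment of their reads is uncertain. Of 78 mitochondrial ribosomal protein genes 6 were lower and 0 higher (median -0.05), and 2 were lower without WT replicate 1.

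Several nuclear genes for small subunits of the respiratory chain were lower in HM. Of 37 complex I genes 8 were lower and 0 higher, of 15 complex IV genes 5 were lower and 0 higher, and of 15 ATP synthase genes 2 were lower and 0 higher (medians -0.05, -0.09 and -0.08). Without WT replicate 1, 1 complex I gene and 3 complex IV genes were lower, and without HM replicate 2, 4 complex I genes were. For ATP synthase 2 genes were lower and 1 higher without WT replicate 1 (median -0.04). After length and GC correction 2 were lower and 0 higher (median -0.02). Cox7a2 (chr9:79755361-79759878), a complex IV subunit, measured 2771, 2475, 2573 and 2574 in WT and 2340, 2296, 2314 and 2239 in HM (-0.18, SE 0.04, unadjusted p = 0.00165). Cox8a (-0.16), Cox7c (-0.16), Cox6c (-0.14), Ndufb9 (-0.19), Atp5e (-0.19) and Atp5g1 (-0.12) also had HM entirely below WT. Among the core subunits that did not pass were Ndufs1 (0.01), Ndufv1 (0.02), Sdha (0.03), Atp5a1 (0.05) and Atp5b (0.01). Of 13 mitochondrially encoded genes 1 was lower (median -0.02), with mt-Co1 at 608293 to 679827 in WT and 601533 to 656074 in HM.

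Transcript length moved with these results. Genes were put in 10 equal bins by the length of their longest transcript in the basic annotation. The median log2 fold change went from -0.06 in the shortest bin (median 863 bases) to 0.05 in the longest (8024 bases). The share of genes higher in HM went from 1% to 11.6% and the share lower from 6.67% to 1.39%. Median deviations of WT replicate 1 were 0.095 in the shortest and -0.095 in the longest bin, the opposite of WT replicates 2 and 3 and of all 4 HM mice. Without that mouse the bin medians ran from -0.04 to 0.02. The median length was 896 bases for ribosomal protein genes and 680 for complex IV genes, against 6855 for synaptic adhesion, 4874 for axon guidance and 2959 for all genes tested. The bins that hold the adhesion and axon guidance medians had 11.6% and 5.5% of their genes higher. The bin that holds the ribosomal and complex IV medians had 6.67% lower.

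After each mouse was corrected for length and GC content, 11 ribosomal protein genes were lower and 0 higher (median -0.05), 2 complex IV genes were lower (-0.04), and 10 adhesion genes were higher (0.06). Without WT replicate 1 the ribosomal count was also 11 lower and 0 higher (-0.05) and the adhesion count 9 higher and 0 lower (0.07). After correction 10 axon guidance genes were higher and 0 lower (0.06), beside 16 and 0 before, and 6 AMPA receptor genes were higher and 0 lower (0.05). For complex I, 2 genes were lower and 0 higher after correction, with a median of -0.008, and the median without WT replicate 1 was -0.004. Against HT, 1 ribosomal gene was lower and 1 higher (median -0.02), and the bin medians ran from -0.01 to 0.01. Length was not tested as a source of the differences beyond these values.

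**Figure D4:**
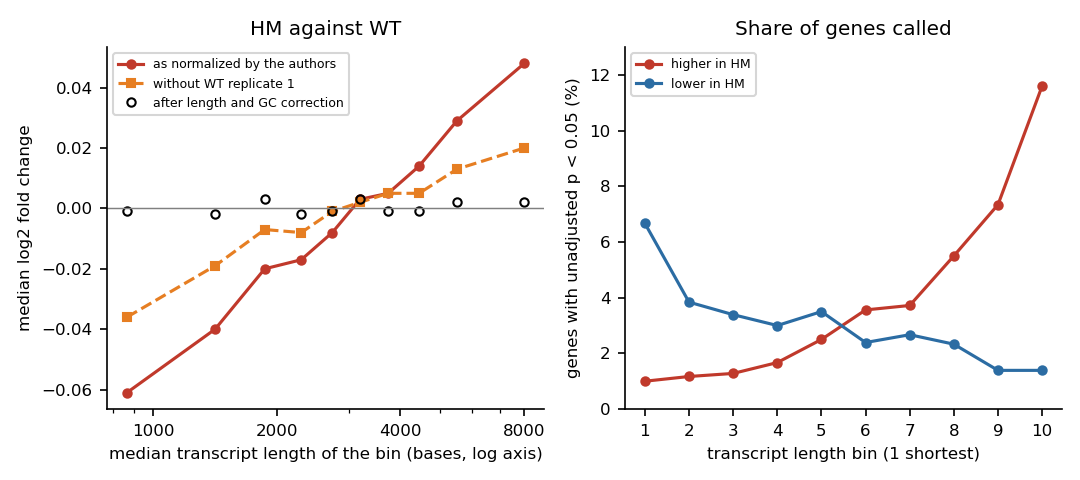
Left, median log2 fold change (HM against WT) in 10 bins of transcript length (log axis, bases) as normalized by the authors, without WT replicate 1 and after length and GC correction. Right, percent of genes per bin higher or lower in HM at an unadjusted p of 0.05; the higher share runs from 1% to 11.6% and the lower from 6.67% to 1.39%.

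**Figure D5:**
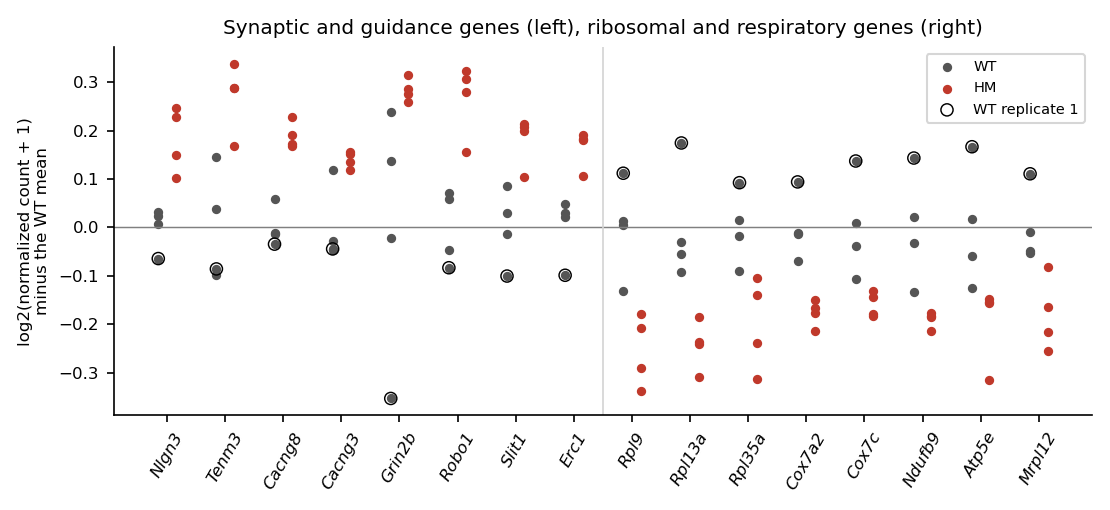
Log2(normalized count + 1) minus the WT mean for 8 synaptic and guidance genes (left of the line) and 8 ribosomal and respiratory genes (right) in 4 WT and 4 HM mice, WT replicate 1 ringed. HM points lie above all WT points on the left and below them on the right, and the ringed mouse is most often the WT mouse farthest from HM.

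Collagen genes were lower in HM more often than the background and were not short. Of 44 genes 8 were lower (18.2%, against 3.05% of all genes) and 0 higher, 32 had a negative and 12 a positive log2 fold change, with a median of -0.12 and a median length of 5989 bases, and 1 was on the study's list. Col11a1 (chr3:114030540-114220718), a fibrillar collagen also expressed in neurons, measured 1443, 1377, 1202 and 1221 in WT and 1066, 1031, 1107 and 1039 in HM, without overlap (-0.30, SE 0.06, unadjusted p = 0.000457; against HT -0.03, unadjusted p = 0.676). Col24a1 measured 659, 525, 642 and 725 in WT and 366, 448, 575 and 423 in HM (-0.50, SE 0.13, unadjusted p = 0.00186), while the fibroblast collagen Col1a1 did not differ beyond its error (0.00, SE 0.08). After length and GC correction 13 collagen genes were lower and 0 higher (median -0.14), and against HT 1 was lower and 0 higher (median -0.02).

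Of 6 PAF1 complex genes 2 had HM entirely above WT, and of 10 gamma-tubulin ring complex genes 2 had HM entirely below (2.41% and 1.81% over all genes). Both lists are small, so these counts describe single genes and not the complexes. In the PAF1 complex they were Cdc73 and Rtf1 (0.05, SE 0.04, unadjusted p = 0.178). Only Cdc73, a gene on the study's list, was higher at an unadjusted p of 0.05. Cdc73 measured 1262, 1289, 1370 and 1458 in WT and 1523, 2107, 1689 and 1993 in HM (0.43, SE 0.09), and it did not differ from HT (-0.02). Of 10 gamma-tubulin ring complex genes 2 were lower and 0 higher. Tubgcp6 measured 2197, 2042, 2079 and 2095 in WT and 1770, 1870, 1861 and 1837 in HM (-0.20, SE 0.04, unadjusted p = 0.000562), Mzt1 differed by -0.13, and the other named members Tubg1 (-0.01) and Tubgcp2 (0.04) did not pass.

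Published brain gene sets that the study had used were counted in the same way, matched by symbol. Of 706 targets of FMRP, the RNA-binding protein lost in fragile X syndrome, 129 were higher (18.3%) and 6 lower (0.85%), with a median of 0.05 and a median length of 6180 bases. The study's list for HM holds 3 of these targets and 5 of the SFARI genes below. The length bin that holds this value had 7.34% of its genes higher. After length and GC correction 78 were higher and 25 lower (median 0.01), beside 634 and 574 over all genes, and against HT 14 were higher and 4 lower. Without HM replicate 2, 78 were higher and 7 lower, beside 546 and 459 over all genes. Of 888 SFARI autism genes 100 were higher (11.3%) and 18 lower (2.03%), and after correction 67 and 30. In the other published autism sets the share higher ran from 3.61% to 12.4%. Of 118 genes reported as lower in autism 7 were higher (5.93%) and 2 lower (median 0.007). Of 80 genes reported as higher in autism 8 were higher (10%) and 2 lower (median -0.003). Of 96 genes of layer 2 to 4 cortical glutamatergic neurons 18 were higher (18.8%, against 3.93% of all genes) and 0 lower. Of 87 genes of the DLX1 and DLX2 interneuron progenitor set 10 were higher (11.5%) and 0 lower. The other 9 GABAergic sets had 3 to 8 genes higher and 1 to 6 lower each, and the parvalbumin set had 4 higher and 6 lower of 92. The other 4 cortical glutamatergic layer sets had 13 to 16 higher and at most 1 lower. Glial sets held few, with 2 higher and 2 lower of 88 for mature oligodendrocytes and 3 higher and 0 lower of 90 for astrocytes.

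State-related lists were mixed. Of 20 immediate early genes 1 was higher and 0 lower; the median of 0.12 became 0.01 without HM replicate 2, in which Fos measured 877 against 403 to 503 in the other HM mice and 406 to 487 in WT. Of 18 glucocorticoid-responsive genes 1 was higher and 0 lower (median -0.12), with Sgk1 at -0.20 and Fkbp5 at -0.09. The direction of that median turned with the column-number block (0.10) and without HM replicate 1 (0.002). Of 17 clock genes 1 was higher and 1 lower. None of 16 stress response genes and 1 of 21 cholesterol synthesis genes passed. Of 16 interferon response genes 2 were higher and 0 lower, and 15 were positive (median 0.19; 0.25 after length and GC correction and 0.11 without HM replicate 2), with Ifit1 at 0.35 (SE 0.18). Of 15 reactive glia genes 1 was higher and 1 lower; Gfap differed by 0.07 (SE 0.06).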

How the data were processed

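Whole-brain RNA of 12 male mice (4 WT, 4 HT, 4 HM) was sequenced. According to the submitters' processing notes and methods, the authors quantified transcripts with Salmon 1.1.0 on GRCm38, summarised them to genes and normalized the counts with DESeq2 1.30.1. The deposited table holds that normalized count signal for 19775 genes, of which 19758 had an entry in the annotation used here. Within a mouse, 6.6% to 24.2% of values under 20 were whole multiples of the value of 1 read (tolerance 0.02), so reads could not be recovered, sequencing depth is unknown and no count model was run. Genes with a mean of at least 10 over the 8 mice compared were kept, values were taken as log2(value + 1), and HM was compared with WT in limma 3.58.1 (R 4.3.3) with a trended variance prior and Benjamini-Hochberg adjustment. All p-values are two-sided. For 1 gene, the exact permutation test of 4 against 4 mice cannot go below 0.0286 and was not used for calls. HM against HT was fitted in the same way and shares the HM mice.

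Gene lists were described by the number of genes with an unadjusted p under 0.05 in each direction, by groups without overlap and by the median log2 fold change, with no test of a list. Members and lists were chosen with earlier results of these data known. Genes named were the 2 paralogs, all genes with an adjusted p under 0.05, and the first 12 protein-coding genes by p in each direction with a mean of at least 100, other than those the study lists for HM. Per list, its defining members and up to 4 members with the smallest p and no overlap were also named. Some genes that this rule selects are not reported here. Annotation is that of the reference GRCm38 gene set, and published gene sets were matched by symbol. Alternatives were other filters, pseudocounts, scalings and variance priors, blocks, a fit of all 12 mice, a loess correction for transcript length and GC content (span 0.4), and each mouse left out. The fit was tested on simulated data for the HM against WT comparison with 18004 genes: of 200 genes changed by a log2 difference of 0.5, 116 were recovered with 8 false calls, and at 0.25, 27 were recovered with 1 false call.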

Additional observations from a re-analysis of the deposited data

Results flagged for a closer look

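In groups of 4 mice, 1 mouse can stand far from the other 3. Such a gap was looked for in the WT and in the HM mice of each gene and list named, and 24 of 416 groups had one, where chance gives about 1 in 20 groups. The values are given without an explanation.

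WT replicate 1 was the mouse apart in several of these. It was the highest WT mouse for Cox6c (5179, the others 4294 to 4419), Glrb (7325, the others 6469 to 6613), Ndufv1 (4430, the others 3915 to 3991), Pvalb (1615, the others 1296 to 1329) and Slc6a5 (44.5, the others 7.42 to 11.02 normalized counts). It was the lowest WT mouse for Polr3a (916, the others 1126 to 1166). By mean log2 deviation it was the highest WT mouse for complex IV genes (0.17, the others -0.07 to -0.05) and ATP synthase genes (0.13, the others -0.05 to -0.03). It was the lowest for postsynaptic scaffold genes (-0.10, the others 0.03 to 0.04).

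Of the other WT mice, replicate 4 was high for Adora2a (1714, the others 1445 to 1486), replicate 3 for Cacng3 (2574, the others 2297 to 2327) and replicate 2 for Gphn (2305, the others 2184 to 2189). The Cacng3 value lies just under the lowest HM value of 2575.

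Among HM mice, replicate 3 was low for Atp5e (1307, the others 1460 to 1468), Erc1 (2106, the others 2217 to 2235), Grin2a (8458, the others 8989 to 9068) and Grm5 (7089, the others 7476 to 7498), and high for Slc4a1 (45.1, the others 7.998 to 8.41). HM replicate 2 was low for Gtf3c4 (1780, the others 1881 to 1901), still above all WT mice. HM replicate 4 was low for Slit1 (3836, the others 4092 to 4135) and high for Glrb (7087, the others 6540 to 6629), and HM replicate 1 was high for Drd2 (1197, the others 1081 to 1098). By list, HM replicate 3 was lowest for cortical deep-layer genes (0.0034, the others 0.05 to 0.06), HM replicate 4 highest for GABA-A receptor genes (0.13, the others 0.05 to 0.06) and HM replicate 1 highest for mitochondrial ribosomal protein genes (-0.051, the others -0.070 to -0.069).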

How the results depend on the processing

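Slc6a20a passed the adjusted threshold under all 21 alternatives. With the replicate number as a block, without a trend in the variance prior, or with the block and a length and GC correction, 1 gene passed, Gtf3c4 being lost. With the column-number block 2 passed, but with Gm49342 in place of Gtf3c4. Same-numbered WT and HM mice did not deviate together (correlations 0.08, -0.03, 0.05 and -0.01), so the numbers do not pair the mice, and the replicate block gave 618 genes higher and 480 lower. Higher genes were 50.1% to 59.2% of those at an unadjusted p of 0.05 (56.3% as reported), 52.5% after length and GC correction. Genes with HM entirely above WT numbered 650 to 839 with 1 mouse left out, and entirely below 561 to 708, since fewer values must then be separated. The difference in median between the longest and shortest length bins went from 0.11 to 0.003 after length and GC correction, which removes such a trend by construction. Medians after that correction were 0.038 for Na,K-ATPase, 0.016 for potassium channels, 0.062 for axon guidance and 0.014 for FMRP targets. Adding the replicate block cannot change these medians, because each replicate number holds both genotypes. Quantile normalization gave 0.029 for presynaptic genes and 0.033 for Na,K-ATPase. The column-number block compares only HM replicate 3 with WT replicate 1 and HM replicate 4 with WT replicate 2. It turned the direction for microglia (0.057), meningeal fibroblasts (0.061), erythrocytes (-0.406), cholinergic neurons (-0.075), cortical deep layers (-0.006), thalamus (-0.055), the published parvalbumin set (-0.022), glycine, serine and proline metabolism (0.024) and the published mature oligodendrocyte set (0.031). It gave 0.092 for astrocytes, 0.026 for the published astrocyte set, 0.171 for pericytes, -0.044 for glutamatergic neurons, 0.093 for AMPA receptors, 0.035 for RNA polymerase III and 0.018 for potassium channels. With 1 mouse left out, medians ran from 0.005 to 0.05 for cortical deep layers, 0.064 to 0.097 for AMPA receptors, 0.012 to 0.091 for GABA-A receptors, -0.031 to 0.015 for RNA polymerase III, 0.049 to 0.074 for Na,K-ATPase, -0.058 to 0.004 for complexes II and III, 0.018 to 0.037 for potassium channels and 0.066 to 0.09 for axon guidance. The median of 23 of the 63 lists described, all within 0.136 of 0 as reported, changed sign under at least 1 alternative. The cause of these shifts was not tested. Olfactory bulb medians stayed between 0.42 and 0.66. Size factor and TMM count fits were not run, because the table holds normalized values. Of the genes named here, 80 had an unadjusted p under 0.05. Of these 16 lost it under the column-number block, 14 with length and GC correction plus the replicate block, and 2 to 10 with 1 mouse left out, the last being among Cox6c, Dlx6os1, Gria1, Grm5, Kcng3, Kl, Lcn2, Mzt1, Nr5a1, Slc38a1, Tbx21, Tef, Tmem119, Tnnt1 and Ttr (highest unadjusted p 0.0526 for Mzt1 to 0.168 for Ttr, by limma).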

Other observations

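A few genes with low levels, counted in the lists above but not named there, had HM values entirely above WT. Lcn2, an acute-phase gene induced in reactive glia, measured 8.98, 8.74, 7.08 and 5.07 normalized counts in WT and 8.99, 46.6, 24.0 and 11.1 in HM (1.23, SE 0.46, unadjusted p = 0.019 by limma; against HT 1.46, unadjusted p = 0.0189). HM replicate 2 was the highest and HM replicate 1 only just exceeded WT. Slc4a1, the erythrocyte anion exchanger, measured 3.77, 3.42, 0.878 and 6.10 in WT and 8.41, 8.27, 45.1 and 7.998 in HM, with HM replicate 3 far above the rest. Nr5a1, a factor of the ventromedial hypothalamus, measured 10.96, 15.6, 13.7 and 13.9 in WT and 20.01, 19.9, 21.9 and 18.5 in HM (0.54, SE 0.24, unadjusted p = 0.0442). Kcng3, a modifier subunit of voltage-gated potassium channels, measured 51.9, 86.7, 91.7 and 82.4 in WT and 112, 107, 102 and 98.1 in HM (0.45, SE 0.17, unadjusted p = 0.0227).

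Some gene groups had little to describe. Of 13 ependymal genes 1 was higher and 0 lower (median -0.14), of 17 cerebellar genes 1 was higher and 0 lower, and of 13 genes of complexes II and III 1 was lower and 0 higher. Tef, a clock-controlled factor, measured 14371, 14653, 14062 and 14261 in WT and 12917, 13922, 13517 and 13792 in HM (-0.08, SE 0.04, unadjusted p = 0.0326; against HT -0.08, unadjusted p = 0.0474).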
